A study of Citrus sinensis with 12 samples.

Results

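In roots of sweet orange (Citrus sinensis) seedlings, 64 genes were picked because their mean level was higher with excess copper at pH 3 and lower with excess copper at pH 4.8. They were chosen from 20122 listed genes on their group means in FPKM, a fragment count scaled to gene length and library depth. A member carries an annotated identifier and averaged 5 FPKM or more in 1 group or more, as did 13169 genes. With levels written as log2(mean FPKM + 1), copper had to add at least 0.5 at pH 3 and to take away at least 0.5 at pH 4.8. Both conditions held for 102 genes. Of these, 38 were left out because 1 copper group stood at least 4-fold apart from every other library, 7 with all pH 3 libraries with copper far above and 31 with all pH 4.8 libraries with copper far below.

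The study grew seedlings for 17 weeks in 4 groups: pH 3 with 300 µM CuCl2, pH 3 with 0.5 µM CuCl2, pH 4.8 with 300 µM CuCl2, and pH 4.8 with 0.5 µM CuCl2, the control for both factors. Below, with copper means 300 µM and without copper 0.5 µM. Each group had 3 RNA-seq libraries, and each library was a pool of 4 seedlings from separate pots, so the replicates show the spread between pools and not between plants. In such whole roots, fewer cells of a type and less RNA per cell cannot be told apart. The tables hold no counts, but the spacing of low FPKM values put the depth of the libraries at 17710000 to 22780000 fragments.

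Copper is a micronutrient that plants need as a cofactor of redox enzymes and that injures roots in excess. Acidity is itself a stress for roots. Protons compete with metal ions for binding sites at the root surface, and acidity also keeps more copper in solution. The series is about high pH easing copper toxicity, and genes whose copper response turns round with pH bear on that question. No gene names or functions come with the identifiers in the files, and the RefSeq table at hand matched 0 of them. Members are therefore given by identifier and by the files' own coordinates, with a genome build and exons that no source used here gives. For the same reason the tissue label was not checked against marker genes, and no role of any member is stated.

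Opposite responses were rare. Among the 13169 annotated genes of 5 FPKM or more, 1827 were at least 0.5 higher with copper at pH 3. At pH 4.8, 1199 of these were also at least 0.5 higher with copper, 526 stayed within 0.5, and 102 were at least 0.5 lower. The members were 3.5% of the genes that copper raised by this amount at pH 3 and 2.69% of the 2376 that it lowered at pH 4.8. The opposite set, lower at pH 3 and higher at pH 4.8 by the same thresholds and with no gene left out, held 35 genes.

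**Figure D1:**
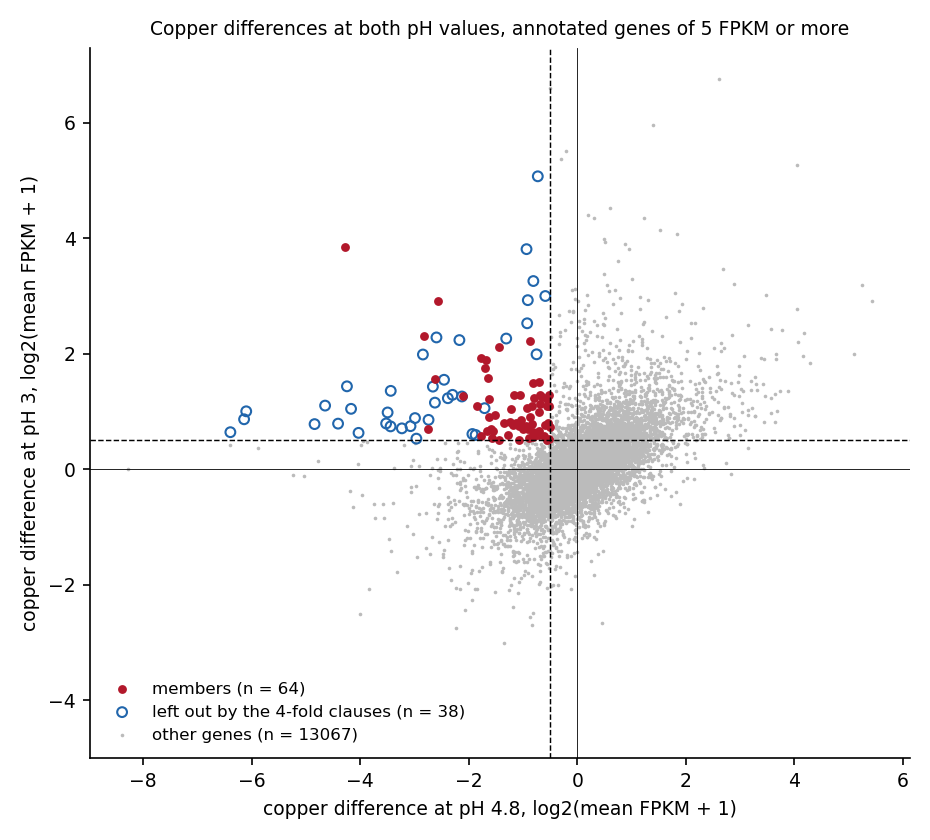
Each point is an annotated gene of 5 FPKM or more, placed by its copper difference at pH 4.8 (horizontal axis) and at pH 3 (vertical axis) in log2(mean FPKM + 1); dashed lines mark the thresholds of -0.5 and 0.5. The 64 members lie in the upper left with the 38 genes left out, apart from the main body of 13067 other genes, which runs from lower left to upper right.

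The values that chose the members are given here as a description. Copper differences of the members were 0.50 to 3.85 at pH 3, with a median of 0.88, and -4.27 to -0.50 at pH 4.8, with a median of -1.02. The medians over the 13169 genes were 0.02 and -0.03. For 38 members the larger of both differences was that at pH 4.8, and for 26 that at pH 3. Both differences were at least 1 in size for 15 members and under 1 for 18. The 31 genes left out for very low levels at pH 4.8 with copper had medians of 1.00 at pH 3 and -2.99 at pH 4.8, and the 7 left out for very high levels at pH 3 with copper had 3.00 and -0.81.

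Calls came from limma, linear models with each gene's variance drawn toward a trend over all genes. At a Benjamini-Hochberg adjusted p under 0.05 over 19204 genes, 61 members were called higher with copper at pH 3, against 20.6% of tested genes. The libraries with copper all lay above those without it for 59 members, as for 24.5% of tested genes. At pH 4.8, 60 members were called lower with copper, against 26.5% of tested genes, and for 61 members, as for 31.8% of tested genes, the libraries did not overlap. Calls at a single pH were missing for 7 members, 3 at pH 3 and 4 at pH 4.8, and 57 members were called at both, against 1.32%. These 57 make up 89.1% of the members and 22.4% of the 254 genes with that pair of calls. In the interaction, which subtracts the copper difference at pH 4.8 from that at pH 3, all 64 members were called, against 11.6% of tested genes with a value above 0. The selection used these contrasts, so the counts describe the set and test nothing.

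Group by group, the median over the members was as follows. The median member stood at 15.3, 12.3 and 14.9 FPKM in the libraries at pH 3 with copper and at 5.65, 5.7 and 5.67 FPKM at pH 3 without it. It stood at 2.85, 3.16 and 2.96 FPKM at pH 4.8 with copper and at 7.85, 7.91 and 10.8 FPKM in the control libraries. The 4 groups did not overlap in this median. Over the 13169 genes the same median was 14.4 to 15.4 FPKM in all 12 libraries. At pH 4.8 with copper, 13 to 16 members were under 1 FPKM, against 0 to 2 in each of the other libraries. These medians and counts come from the libraries that chose the members, so they describe the set and test nothing.

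**Figure D2:**
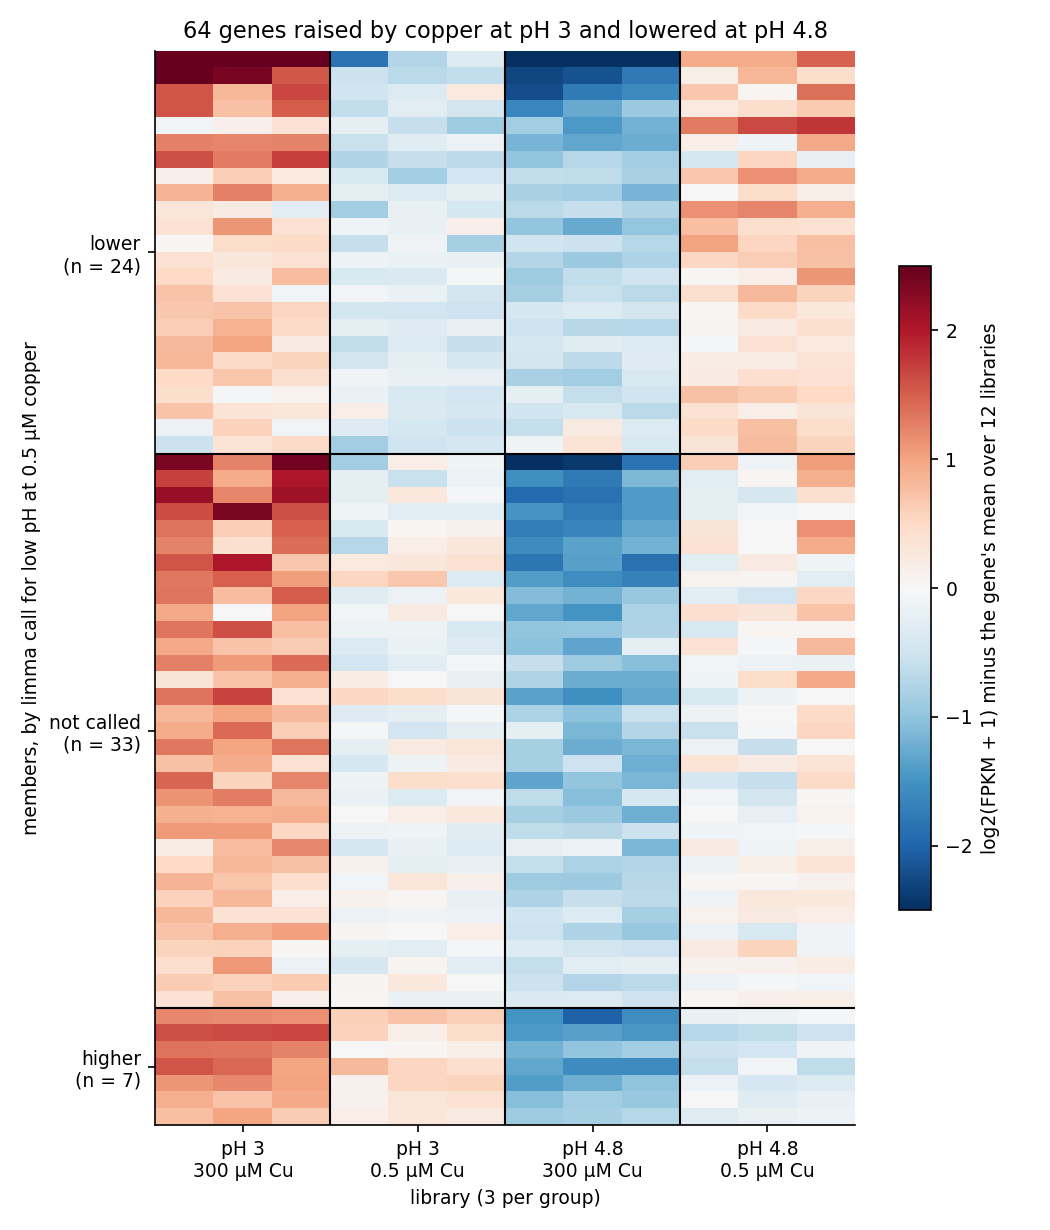
Rows are the 64 members, split by the limma call for low pH at 0.5 µM copper (24 lower, 33 not called, 7 higher), and columns the 12 libraries; colour gives log2(FPKM + 1) minus the gene's mean over all libraries, with values beyond the ends of the scale in the end colours. The block at pH 3 with 300 µM copper is high and that at pH 4.8 with 300 µM low in nearly every row, while the groups at 0.5 µM differ between the 3 sets of rows.

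Cs4g02690 on chromosome 4 (1254521 to 1255539, minus strand) had both the highest copper difference at pH 3 and the lowest at pH 4.8. At pH 3 it was at 233.91, 175.46 and 261.82 FPKM with copper, against 6.80, 15.84 and 21.04 FPKM without. At pH 4.8 it was at 1.97, 2.01 and 2.55 FPKM with copper, against 52.06, 52.30 and 76.93 FPKM without. No libraries of different groups overlapped. The copper differences were 3.85 and -4.27, and the interaction was 8.13.

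Cs6g07690 on chromosome 6 (9543966 to 9545372, minus strand) had the second largest interaction, 5.47. Its FPKM was 84.41, 66.36 and 36.90 at pH 3 with copper, against 7.87, 7.10 and 7.48 without. At pH 4.8 it was 1.67, 1.85 and 2.76 with copper, against 13.26, 21.99 and 16.63 without. The libraries at pH 3 with copper spread widely, yet the lowest of them was above all 9 others.

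The gene orange1.1t00346, of 561 bp on unplaced sequence (5077070 to 5077630, minus strand), had the second lowest copper difference at pH 4.8. At pH 4.8 it was listed at 0.00, 0.09 and 0.60 FPKM with copper, against 7.83, 4.43 and 10.96 FPKM without. For a gene of this length 3 fragments were worth 0.267 to 0.301 FPKM in those copper libraries, so 2 of the 3 values were below that counting floor. The difference of -2.83 depended on this, and became -4.57 with a pseudocount of 0.1. At pH 3 the gene was at 28.65, 12.56 and 29.87 FPKM with copper, against 2.16, 5.46 and 4.38 FPKM without.

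The most abundant members, by the mean over all libraries, showed smaller differences and a closer spread. Cs7g03570 on chromosome 7 (1607914 to 1610034) averaged 210 ± 25.6 FPKM at pH 3 with copper, against 141 ± 6.87 without (SD, n = 3 each). At pH 4.8 it averaged 68.2 ± 4.27 FPKM with copper and 104 ± 6.28 without (SD, n = 3 each). Cs9g17250 on chromosome 9 (16602526 to 16605439) followed the same order, 154 ± 13.9 against 101 ± 9.82 FPKM at pH 3 and 42.8 ± 2.77 against 75.3 ± 7.94 FPKM at pH 4.8, with copper first (SD, n = 3 each). In both genes the 4 groups did not overlap.

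The members with the smallest spread among replicates were Cs2g27610 and Cs6g07830. Cs2g27610 on chromosome 2 (27346263 to 27349884) was at 52.18, 48.80 and 52.27 FPKM at pH 3 with copper, against 36.19, 35.33 and 35.13 without, and at 23.72, 20.56 and 22.83 FPKM at pH 4.8 with copper, against 57.38, 61.57 and 67.26 without. Its highest level was that of the control. Cs6g07830 on chromosome 6 (9810285 to 9812297) averaged 27.1 ± 0.834 and 18.8 ± 1.91 FPKM at pH 3 with and without copper, and 10.7 ± 0.789 and 16.1 ± 0.663 FPKM at pH 4.8 with and without copper (SD, n = 3 each). Its copper differences were 0.50 and -0.56, and the libraries with copper overlapped those without it at neither pH.

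**Figure D3:**
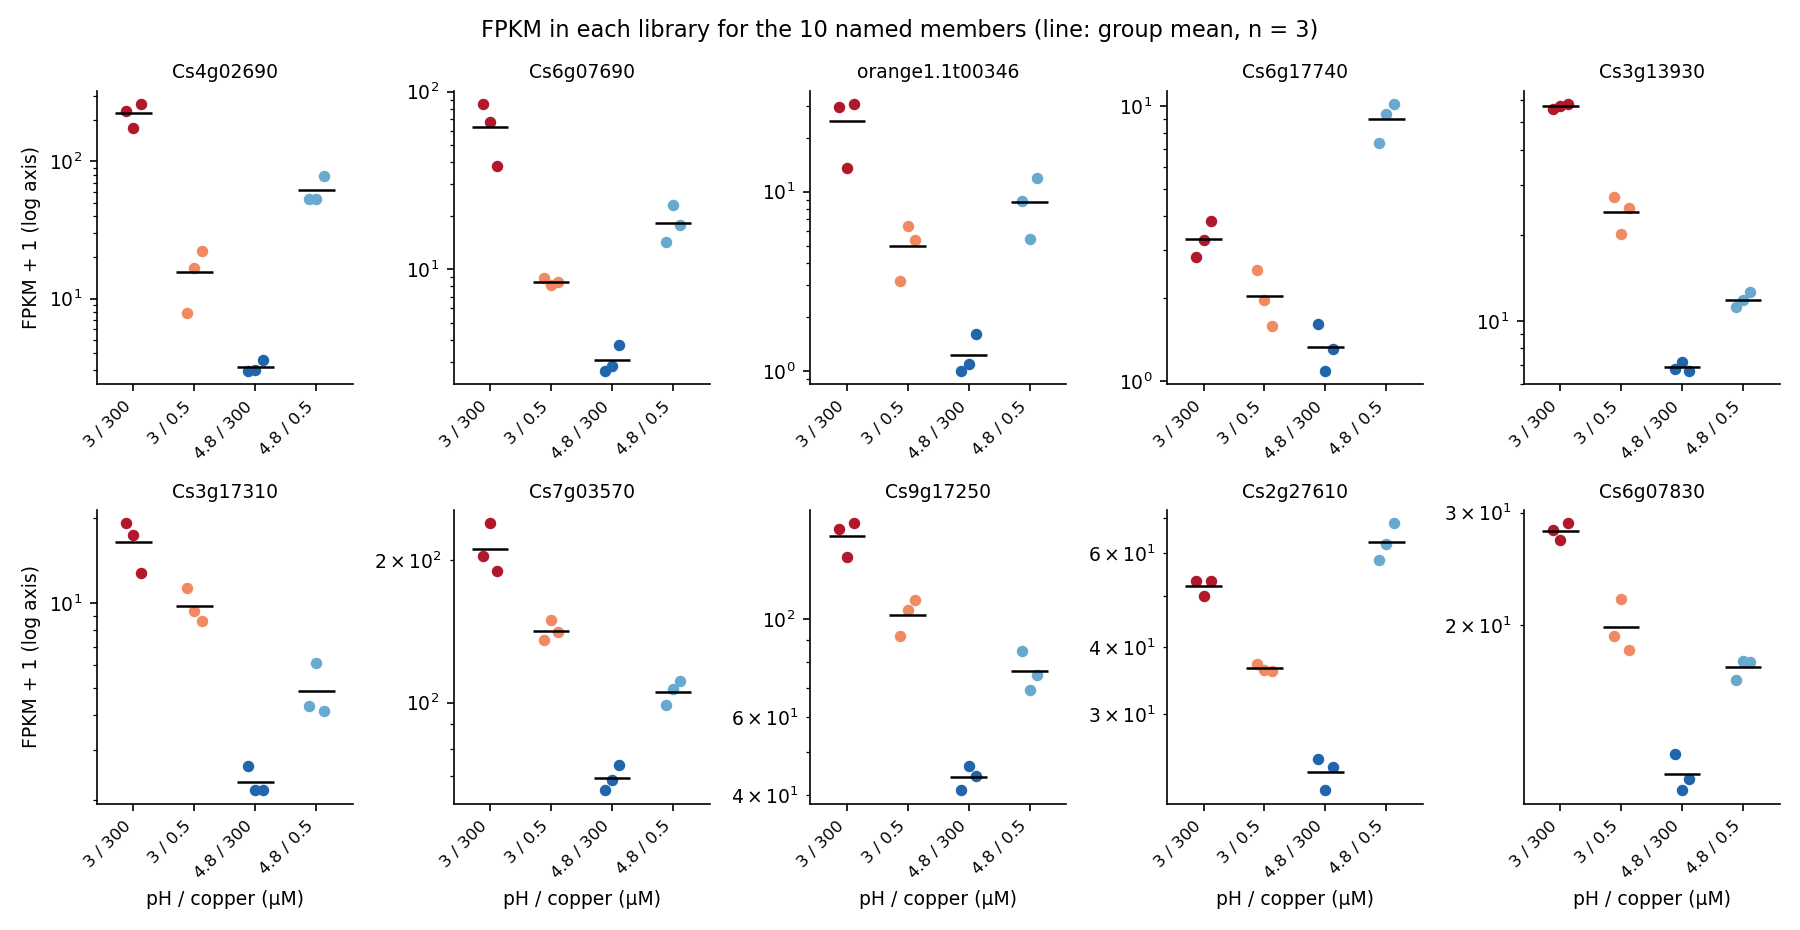
FPKM + 1 on a log axis in each library of the 10 named members, with groups ordered by pH and copper level and a line at each group mean (n = 3). In every panel the group at pH 4.8 with 300 µM copper is the lowest, and in 8 of 10 panels the group at pH 3 with 300 µM copper is the highest; in Cs6g17740 and Cs2g27610 the control is.

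At the edge of the selection, the member nearest to the pH 3 threshold was Cs7g11560 on chromosome 7 (7583855 to 7589140), with a copper difference of 0.500 there and -1.065 at pH 4.8. The nearest gene outside it was Cs5g02340 on chromosome 5 (1029223 to 1031080), with 0.484 and -0.615. At the pH 4.8 threshold the nearest member was Cs8g07090 on chromosome 8 (4979349 to 4980655), with -0.502 and a difference of 0.730 at pH 3. The nearest gene outside was Cs6g13660 on chromosome 6 (15088119 to 15092549), with -0.494 and 0.823. Genes on either side of the thresholds thus had much the same values.

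All 12 libraries chose the 64 members, so none is left to check them. The selection procedure was examined instead, on newly chosen lists that only partly hold the members. When it was repeated without replicate 1, 2 or 3 of every group, it gave 78, 69 and 68 genes, of which 50, 52 and 46 were members. In the left-out libraries, 82.1%, 87% and 92.6% of the chosen genes were higher with copper at pH 3 and lower at pH 4.8. Of the 13169 genes, 14.7%, 17.2% and 16.6% had those signs in the same libraries. Both thresholds were passed there by 46.2%, 55.1% and 45.6% of the chosen genes, against 0.98%, 0.987% and 1.08% of the 13169. Differences shrank in most cases. For replicate 3 the median at pH 3 was 0.86 in the choosing libraries and 0.57 in the left-out ones, while at pH 4.8 it was -0.77 and -0.92. The 3 selections share libraries and are not independent of each other.

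The remaining comparisons were not named in the selection but use its libraries. The selection by itself favours members that are low at pH 3 without copper and at pH 4.8 with copper, and high in the other groups. Counts are therefore given beside the share of all tested genes and read as a description.

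For low pH alone, at 0.5 µM copper, limma called 24 members (37.5%) lower, against 21.4% of tested genes, and 7 (10.9%) higher, against 13.3%. The other 33 (51.6%) were not called, a smaller share than among tested genes. The libraries at pH 3 all lay below those at pH 4.8 for 30 members (46.9%), against 31.7% of tested genes. They all lay above for 11 (17.2%), against 22.1%. By both measures the raised share was only a little below that of all tested genes, a direction that the selection itself favours. The median difference was -0.42 over the members and -0.05 over the 13169 genes. At least 0.5 lower were 39.1% of members, against 13.3% of the 13169 genes. This was the case for 38.1% of the 826 genes that copper lowered by 0.5 or more at both pH values, for 28.4% of the 1448 that it lowered at pH 4.8 while they stayed within 0.5 at pH 3, and for 2.75% of the 1199 raised at both. Of the genes left out of the selection as at least 4-fold apart, 64.5% of the 31 and 42.9% of the 7 were at least 0.5 lower. Lower levels with low pH alone were thus not particular to the members. All of these comparisons share the control libraries.

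Cs6g17740 on chromosome 6 (18179380 to 18179927) had the lowest difference for low pH alone, -2.14. Without copper it was at 1.54, 0.98 and 0.59 FPKM at pH 3, against 6.33, 8.35 and 9.21 FPKM at pH 4.8. With copper it was at 1.83, 2.25 and 2.82 FPKM at pH 3, against 0.61, 0.09 and 0.31 FPKM at pH 4.8, the last 3 values resting on 1 to 6 fragments each. The pH groups did not overlap at either copper level, and every library of the 3 treated groups stayed below the control libraries. With a pseudocount of 0.1 the difference for low pH alone was -2.83. Cs4g02690 was next, with a difference of -1.98 from the values given above.

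On the other side, Cs3g13930 on chromosome 3 (18270104 to 18275861) was higher at low pH alone, by 1.03. Without copper it was at 26.37, 19.16 and 24.07 FPKM at pH 3, against 10.15, 10.84 and 11.68 FPKM at pH 4.8. With copper it was at 54.76, 56.15 and 57.09 FPKM at pH 3, against 5.79, 6.14 and 5.67 FPKM at pH 4.8. Cs3g17310 on chromosome 3 (21051911 to 21054202) averaged 8.75 ± 1.37 FPKM at pH 3 and 3.85 ± 1.1 FPKM at pH 4.8 without copper (SD, n = 3 each), a difference of 1.01. With copper its means were 15.5 ± 3.31 FPKM at pH 3 and 1.32 ± 0.269 FPKM at pH 4.8 (SD, n = 3 each). In both genes acidity and copper together gave the highest level and copper at pH 4.8 the lowest.

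At 300 µM copper nearly all members were higher at the lower pH, which the selection largely fixed. This difference is the sum of the interaction and the difference for low pH alone. Through the thresholds of the selection the interaction was 1.04 or more in every member. The counts here describe that sum. In limma 62 were called higher at pH 3 than at pH 4.8, against 19.5% of tested genes, and 0 lower, against 22.9%. At an unadjusted p under 0.05 the number lower was also 0, against 27.5% of tested genes. The 62 were also free of overlap between the libraries of both groups, as were 21.8% of tested genes in this direction. The median difference was 1.70, against -0.04 over the 13169 genes. The members not called were Cs7g12600 and orange1.1t05439, named after their values were seen. With copper, Cs7g12600 on chromosome 7 (8559129 to 8560070) was at 2.99, 6.34 and 7.04 FPKM at pH 3, against 4.43, 6.29 and 3.35 FPKM at pH 4.8. At pH 3 with copper orange1.1t05439, unplaced at 86766077 to 86766685, had 2.69, 5.11 and 2.90 FPKM, against 1.73, 3.78 and 2.23 FPKM at pH 4.8. In both the libraries overlapped.

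Low pH and copper together were set against the control. Here 39 members were called higher, against 27.5% of tested genes, and 5 were called lower, against 30.6%. The other 20 were not called, a smaller share than among tested genes. Libraries did not overlap for 39 members that were higher, as for 28.5% of tested genes, and for 6 that were lower, as for 32.3%. The median difference was 0.70, against -0.02 over the 13169 genes. Within 0.5 of the control were 22 of the 64 members, against 7709 of the 13169 genes, so a smaller share of the members. The difference from the control is the sum of the difference for low pH alone and the copper difference at pH 3, which the selection set at 0.5 or more. The counts by call for low pH alone are therefore a description of that sum. Of the 24 members that low pH alone lowered, 10 were higher than the control under both treatments, 5 lower and 9 not called. Of the 33 not called for low pH alone, 22 were higher and 11 not called, and all 7 that low pH alone raised were higher. For the 7 this follows from the sum. Both comparisons also use the control libraries.

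The 5 members below the control under both treatments were Cs2g27610, Cs4g20420, Cs6g17740, Cs7g11560 and orange1.1t03173, and low pH alone lowered each of them in limma. They are named for that count, after their values were seen, except those that the fixed choice of genes already names. Cs4g20420 on chromosome 4 (19753436 to 19754270) was at 25.69, 36.75 and 28.07 FPKM under both treatments and at 17.95, 12.59 and 16.55 FPKM with low pH alone. It was at 15.06, 14.72 and 13.04 FPKM with copper alone and at 38.35, 53.47 and 45.93 FPKM in the control. Either treatment alone thus gave about the same level, and both together a level between these and the control.

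Some members, chosen after their values were seen, had large copper differences and none called for low pH alone. Cs5g10550 on chromosome 5 (7377751 to 7378990) was at 148.27, 243.95 and 146.37 FPKM under both treatments and at 43.86, 39.07 and 38.53 FPKM with low pH alone. It was at 16.29, 13.31 and 17.17 FPKM with copper alone and at 40.24, 45.04 and 46.74 FPKM in the control. At 0.5 µM copper the pH groups overlapped, while each copper group lay apart. Under both treatments orange1.1t05863, unplaced at 34932466 to 34933958, had 110.47, 151.29 and 58.49 FPKM, and with low pH alone it had 43.36, 44.50 and 47.67 FPKM. It was at 9.72, 13.58 and 9.22 FPKM with copper alone and at 30.36, 42.74 and 33.58 FPKM in the control. Its libraries under both treatments had a wide spread, and the lowest was still above all others. At 0.5 µM copper all its libraries at pH 3 lay above those at pH 4.8, although limma did not call the difference. Among the 15 members with copper differences of at least 1 in size at both pH values, low pH alone lowered 6 in limma, against 21.4% of tested genes, and raised 0, against 13.3%, and 11 were above the control under both treatments, against 27.5%.

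Single treatments were compared as low pH alone against copper alone. Higher with low pH alone were 45 members, against 19.8% of tested genes, and lower 0, against 29.8%. The other 19 were not called, a smaller share than among tested genes. Without overlap, 48 were higher, as were 24.3% of tested genes, and 2 lower, as were 36.3%. At an unadjusted p under 0.05 the number lower was 1, against 33.4% of tested genes. It was Cs7g12600, which had an adjusted p of 0.0889 in limma and averaged 2.82 FPKM with low pH alone and 4.69 FPKM with copper alone. The median difference was 0.71, against -0.08 over the 13169 genes. In every member the selection placed pH 3 with copper above pH 3 without, and the control above pH 4.8 with copper. Only pH 3 with copper or the control could thus be highest, and only the other groups lowest. By group means, pH 4.8 with copper was the lowest group in 60 members and pH 3 without copper in 4. The highest group was pH 3 with copper in 54 and the control in 10. The commonest order, from high to low, was pH 3 with copper, control, pH 3 without copper and pH 4.8 with copper, in 35 members, and 17 had the control and pH 3 without copper in the reverse order.

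**Figure D4:**
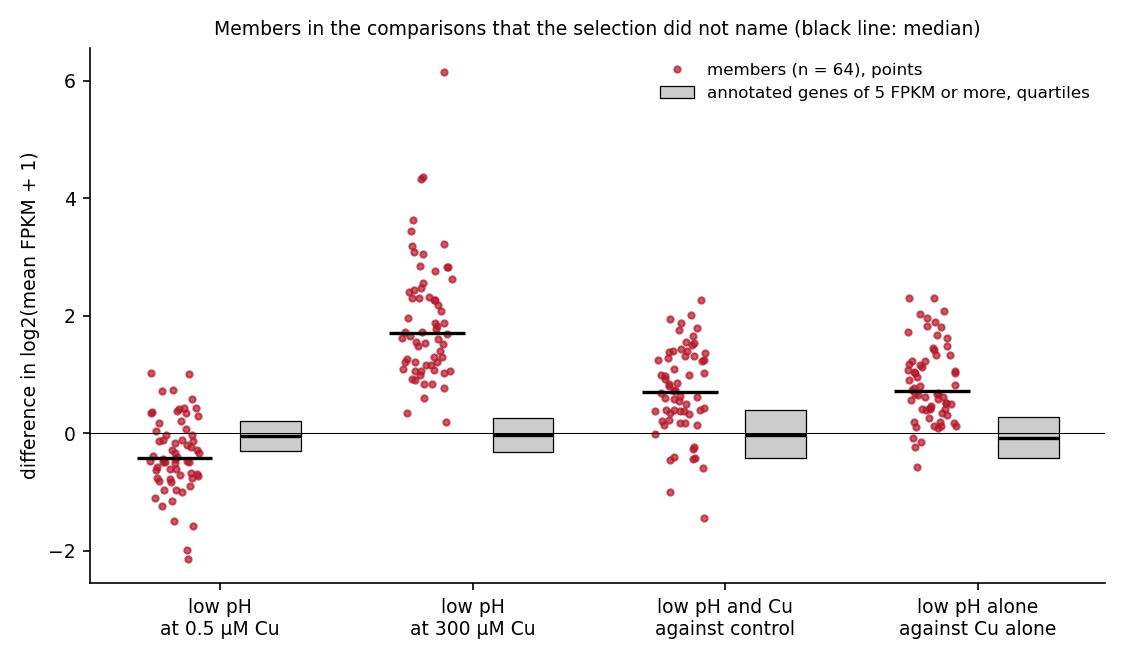
Differences in log2(mean FPKM + 1) of the 64 members (points, with the median as a black line) in the comparisons that the selection did not name, beside the quartiles of the 13169 annotated genes of 5 FPKM or more (grey boxes). Member medians are -0.42 for low pH at 0.5 µM copper, 1.70 for low pH at 300 µM, 0.70 for both treatments against the control and 0.71 for low pH alone against copper alone, while the boxes straddle 0.

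Replicate spread was larger among the members than in general. The median residual SD on the log2(FPKM + 1) scale was 0.251 over the members and 0.142 over the 13169 genes. A larger spread was not particular to the members. The same median was 0.481 over the 31 genes left out and 0.268 over the 7. It was 0.19 in the opposite set and 0.17 over the 1199 genes raised at both pH values. At pH 3 with copper the median SD was 0.278 over the members and 0.179 over all tested genes. At pH 3 without copper these were 0.159 and 0.115. At pH 4.8 they were 0.184 and 0.126 with copper, and 0.206 and 0.115 in the control. In both sets the spread was widest at pH 3 with copper. Control replicate 3 was the highest of its group for 38 members (59.4%), against 34% of the 13169 genes. Without this library the selection gave 62 genes, 57 of them members. The libraries at pH 3 with copper listed 8 to 15 genes at 0, against 41 to 118 in the 9 other libraries. The part of these differences in the members' values was not tested.

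Length and level were not thresholds of the selection beyond the minimum of 5 FPKM in a group. The members spanned 302 to 5758 bp from start to end, with a median of 1851 bp, against 3397 bp over the 13169 genes. Of the genes under 1 kb 1.54% were members, and of those of 4 kb or more 0.116%. Short spans were not particular to the members, since the opposite set had a median of 1454 bp. The members' mean level over all libraries was 1.80 to 131 FPKM with a median of 7.74 FPKM, against 15.4 FPKM over the 13169 genes and 19.9 FPKM in the opposite set. Low levels were not particular to the members either. The median was 7.99 FPKM over the 31 genes left out and 3.96 FPKM over the 7. It was 9.91 FPKM over the 526 genes raised at pH 3 and within 0.5 at pH 4.8. Shorter and less abundant genes rest on fewer fragments, and the share of these features in the selection was not tested.

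**Figure D5:**
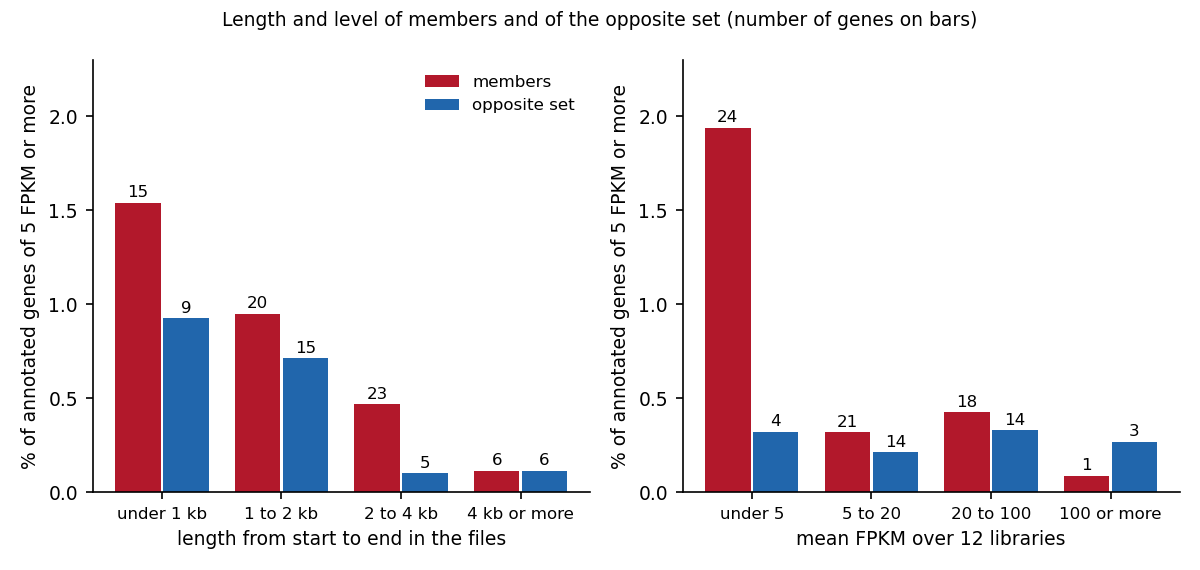
Bars give the members (red) and the opposite set (blue) as a percentage of the annotated genes of 5 FPKM or more in each class of length (left) and of mean level over 12 libraries (right), with the number of genes on each bar. Both sets decline with length up to 4 kb, and 24 of the 64 members have a mean under 5 FPKM, against 4 of the 35 genes of the opposite set.

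The members were scattered over the genome. They lay on chromosomes 2 to 9 and on unplaced sequence, which held 12 members (18.8%) and 13.3% of the 13169 genes. Chromosome 7 had 11 members (17.2%), against 12.3% of the 13169 genes. Chromosome 3 had 10 (15.6%, against 10.2%), chromosome 2 had 9 (14.1%, against 11.5%) and chromosome 5 had 8 (12.5%, against 13.1%). Chromosome 1 had 0 of its 1277 genes of 5 FPKM or more, which were 9.7% of the 13169. No members were next to each other among the listed annotated genes. The closest were Cs5g04260 and Cs5g04330 on chromosome 5, 63.3 kb apart, the one pair within 100 kb and named after its position was seen. Of 84 neighbouring genes of 5 FPKM or more, 16.7% were at least 0.5 higher with copper at pH 3, against 13.9% of the 13169, and 20.2% at least 0.5 lower at pH 4.8, against 18%. None of these neighbours passed both thresholds, which 0.775% of the 13169 genes did. With so small a share, none among 84 genes says little. The span of 1 member (1.56%) overlapped that of another listed gene, against 4.72% of the 13169 genes. The pair lay on opposite strands, and reads of such a pair cannot be told apart where counting ignores strand.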

How the data were processed

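The authors deposited 1 table per library with FPKM values, position and strand of 20122 genes. The submitters' processing notes list, without saying what each did, DESeq2 1.22.1, StringTie 1.3.4d, featureCounts 1.6.2, HISAT2 2.1.0 and fastp 0.19.3. Build, annotation, strand setting and handling of multiply mapped reads were not given, so near-identical gene copies are uncertain. Groups follow the treatment label; titles of the control samples give another copper level, but the label's 0.5 µM is also in the series' design text and was taken.

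Members and named genes were chosen with earlier results of these data known. Named are the 2 members with the highest copper difference at pH 3, the lowest at pH 4.8, the largest interaction, the lowest and the highest difference for low pH at 0.5 µM copper, the highest mean level and the smallest replicate spread, and the genes nearest each threshold. Differences are of log2(group mean FPKM + 1), which understates changes of low genes. Tests used limma 3.58.1 (R 4.3.3, variance trend) on log2(FPKM + 1) of the 19204 genes with a group mean of at least 1 FPKM. They were two-sided and used all 12 libraries. Each gene had 1 spread for all 4 groups, although pH 3 with copper had the widest spread. Without counts, no count test was run.

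Depth was taken as the number of fragments at which FPKM of genes under 900 bp and 6 FPKM came closest to whole fragments. Then 76.1% to 79.0% of 882 to 958 values per library lay within 0.15 of a whole number, against 30% by chance. On a gene of 1 kb 3 fragments were worth 0.132 to 0.169 FPKM, a floor for counting error only.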

Additional observations from a re-analysis of the deposited data

Results flagged for a closer look

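The effect of copper differed between pH 3 and pH 4.8 in limma's interaction test for all 64 members, which draws attention but follows from how they were chosen. The interaction was 8.13 for Cs4g02690 and 5.47 for Cs6g07690, the 2 highest values among the members.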

How the results depend on the processing

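The number of members depended on the rule's own settings. It was 110 with a minimum of 1 FPKM, 39 with a minimum of 10 FPKM, 15 with thresholds of 1 and -1, and 102 without the 4-fold clauses. A pseudocount of 0.1 gave 84, quantile normalization 66 (55 of the 64 among them) and median scaling 59, all members. Leaving out each library in turn gave 62 to 73.

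Counts of calls among the members stayed within 1.5 times under the other pseudocount, filters, scalings and left-out libraries, except members lower with low pH alone than with copper alone: 0, but 1 in the fit on the compared groups, and 0 to 1 without each library (1 without replicate 1 at pH 3 with copper, or replicate 3 at pH 4.8 with copper). That gene was Cs7g12600. Without each library, 53 to 61 members were called higher with copper at pH 3, 58 to 62 lower at pH 4.8, 17 to 25 lower with low pH alone and 37 to 43 higher than the control under both treatments. The copper, interaction and low pH differences for which members are named kept their sign in every setting tried. Of the held-out libraries, replicate 3 gave 92.6% of genes with both signs and replicate 1 gave 82.1%. The causes were not tested.

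Replicate numbers were not taken as a pairing. Of 18 correlations between same-numbered libraries of different groups, 7 exceeded 0.1 (-0.22 to 0.24), and 6 of 12 libraries were closest to their own number. These values do not settle whether the numbers mark a pairing. With a replicate block, 63 members were called for copper at pH 3, 61 at pH 4.8, and 1 lower with low pH alone than with copper alone. Depth limits levels near 0.15 FPKM on 1 kb.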
